A study of Mus musculus with 10 samples.

Results

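The regions described here are the 3818 broadest H3K36me3 peaks over genes, out of 43255 H3K36me3 peaks in all, mapped in neutrophils of Morrbid-deficient and wild-type mice. The domains were chosen by the deposited width of the peak, at least 20000 bp, and by the deposited annotation of its centre, which had to be other than intergenic. Width, and the H3K36me3 signal from which the consensus peaks were called, are therefore given as a description. Another 28798 genic peaks were narrower than 20000 bp, and 75 peaks of at least 20000 bp were annotated as intergenic.

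The series holds 10 samples of sorted mouse neutrophils taken ex vivo without culture. The KO neutrophils came from Morrbid-deficient mice on a C57BL6 background, and the WT neutrophils from C57BL6 mice. H3K4me1, H3K4me3, H3K27ac and H3K36me3 were each mapped by ChIP-seq, which sequences the DNA bound to histones that an antibody pulls down, in 1 KO and 1 WT library, and 2 further samples titled as input were not used here. With 1 library per mark and genotype there is no replicate check, so no test across samples was possible, and the age, sex and number of the mice are not given in the sources used here.

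H3K36me3 is trimethylation of lysine 36 on histone H3. In mammals it is laid down by SETD2, a methyltransferase that travels with elongating RNA polymerase II, so the mark covers the bodies of transcribed genes and usually increases away from the promoter. Readers of the mark include the de novo DNA methyltransferases and the mismatch repair protein MSH6, and KDM4 demethylases can remove it. H3K4me3 and H3K27ac mark active promoters, with H3K27ac also at active enhancers, and H3K4me1 marks enhancers and the flanks of promoters. Neutrophils live for a short time. The gene of Morrbid, a non-coding transcript, neighbours Bcl2l11, from which the death-promoting protein Bim is made.

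Promoters of 5 host genes show the range of sequence at the starts of genes that carry a long domain. Abca13 and Usp34 host 2 of the widest domains, Chil3 hosts the densest, and Bcl2l11 and Trpm2 host the domains with the highest and the lowest KO over WT ratio. Each run is one RefSeq promoter of the gene in GRCm38.p6, 300 bases on the gene's strand, from 250 before the start to 50 after it, with every CG dinucleotide in capitals.
Abca13: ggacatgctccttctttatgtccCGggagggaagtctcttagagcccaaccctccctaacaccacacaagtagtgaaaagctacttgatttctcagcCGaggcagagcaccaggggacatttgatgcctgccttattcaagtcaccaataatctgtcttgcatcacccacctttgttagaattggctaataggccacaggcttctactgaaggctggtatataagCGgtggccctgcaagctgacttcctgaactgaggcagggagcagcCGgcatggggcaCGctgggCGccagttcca
Usp34: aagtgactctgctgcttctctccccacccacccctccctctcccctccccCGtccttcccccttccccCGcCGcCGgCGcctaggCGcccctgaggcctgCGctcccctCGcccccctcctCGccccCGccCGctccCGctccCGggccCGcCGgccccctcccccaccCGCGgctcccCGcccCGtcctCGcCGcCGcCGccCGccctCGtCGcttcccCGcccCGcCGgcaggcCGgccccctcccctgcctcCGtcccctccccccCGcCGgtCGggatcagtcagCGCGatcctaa
Chil3: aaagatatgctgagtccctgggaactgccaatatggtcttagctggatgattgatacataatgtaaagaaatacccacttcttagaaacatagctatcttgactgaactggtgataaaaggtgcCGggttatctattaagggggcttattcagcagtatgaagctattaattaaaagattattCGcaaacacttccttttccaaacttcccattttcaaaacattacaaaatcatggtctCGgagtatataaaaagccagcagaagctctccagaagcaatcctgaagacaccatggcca
Bcl2l11: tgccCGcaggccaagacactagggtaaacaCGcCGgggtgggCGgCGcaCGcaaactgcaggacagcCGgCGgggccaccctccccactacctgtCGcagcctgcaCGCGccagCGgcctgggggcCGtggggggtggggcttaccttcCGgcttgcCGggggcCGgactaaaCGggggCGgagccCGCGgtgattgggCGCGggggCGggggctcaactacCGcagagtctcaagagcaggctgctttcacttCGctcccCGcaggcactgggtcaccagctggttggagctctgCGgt
Trpm2: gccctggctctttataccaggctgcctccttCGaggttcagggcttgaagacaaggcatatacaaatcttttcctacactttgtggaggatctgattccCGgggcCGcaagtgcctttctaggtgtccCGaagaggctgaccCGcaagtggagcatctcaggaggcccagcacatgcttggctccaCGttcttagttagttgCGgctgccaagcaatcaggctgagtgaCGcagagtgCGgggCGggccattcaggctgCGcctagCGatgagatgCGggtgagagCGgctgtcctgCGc
In GRCm38.p6 these windows are chr11:9191692-9191991 on the plus strand for Abca13, chr11:23306645-23306944 on the plus strand for Usp34, chr3:106167515-106167814 on the minus strand for Chil3, chr2:128125788-128126087 on the plus strand for Bcl2l11 and chr10:77969823-77970122 on the minus strand for Trpm2. The Usp34 window holds 36 CG dinucleotides and the Bcl2l11 window 27, against 15 for Trpm2, 6 for Abca13 and 3 for Chil3. The motif TATAAA, read on both strands, is present in the Chil3 and Trpm2 windows, and 13.6% of the 32851 promoter windows in the table hold it. All other coordinates below are mm9, as deposited.

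The targeted locus was checked first. H3K36me3 over the body of Gm14005, the symbol under which the files list the Morrbid gene, summed to 14.96 normalized reads in the KO library and 4030 in the WT library. Its widest peak spanned 19142 bp, so the Morrbid gene itself fell just under the width limit and is not among the domains. The H3K36me3 libraries held 13095590 reads inside peaks for KO and 11618230 for WT. The WT libraries of the other marks were shallower, with 2250264 to 2669490 reads in peaks against 10265524 to 14317664 in the KO libraries. Markers of other blood lineages were scarce among the hosts. Of 60 listed marker genes of 8 other lineages, 1 hosted a long domain (Kit), against 5 of 20 neutrophil markers. Among genes with a genic H3K36me3 peak, 29.4% of the neutrophil markers and 30.7% of all 10625 genes hosted one. A gene much shorter than the width limit can hardly host a domain, so these counts do not measure the purity of the cells.

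The long domains carried most of the H3K36me3 signal. They covered 157.2 Mb, which is 54.7% of the length under H3K36me3 peaks, and held 64.2% of the KO and 64.3% of the WT signal in peaks. The median domain spanned 33934 bp (interquartile range 25370 to 48815 bp) and the widest 324412 bp. The median density was 48.4 normalized reads per kb in KO and 49.4 in WT, and the middle 90% of domains lay between 30.2 and 68.9 per kb in KO and between 31.6 and 68.7 in WT. Narrower genic peaks had median densities of 27.4 in KO and 27.6 in WT, and the 75 broad intergenic peaks 44.7 in KO and 45.8 in WT. Density is part of what a peak caller uses to join a region, so this gap is a description.

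Wider domains were denser. From 20 to 30 kb (1533 domains) the median density was 45.1 per kb in KO and 46.2 in WT. From 30 to 50 kb (1395 domains) it was 48.5 in KO and 49.6 in WT, and from 50 to 100 kb (768 domains) 51.6 in KO and 52.9 in WT. The 122 domains of 100 kb and over reached 54.6 in KO and 55.7 in WT. Across the 3818 domains the Spearman correlation of width and density was 0.22, and that of KO and WT density was 0.97. Both are descriptions over regions of the same libraries.

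**Figure D1:**
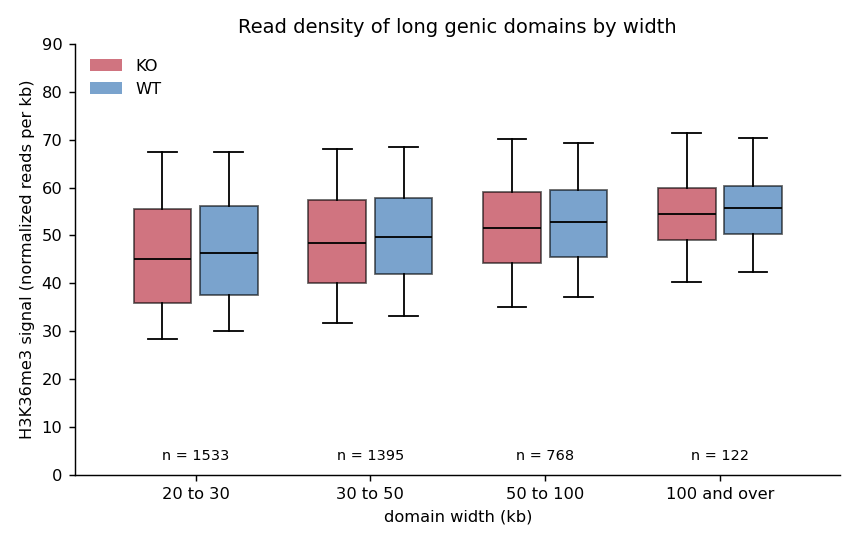
Normalized H3K36me3 reads per kb of long genic domains (y axis) in 4 width classes (x axis, kb), with KO left of WT in each class. Boxes span the quartiles with the median as a line, whiskers run from the 5th to the 95th percentile, and the median climbs from 45.1 to 54.6 per kb in KO and from 46.2 to 55.7 in WT.

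The domains lay over 3258 host genes, 3786 of the 3818 over protein-coding genes. The centre was intronic in 3488 domains (91.4%), exonic in 210, in a 3' UTR in 59, at a transcript end in 44, at a promoter in 11, in a non-coding transcript in 5 and in a 5' UTR in 1. The host differed from the gene with the nearest start in 1365 domains (35.8%), and for 195 domains the nearest start was that of a microRNA gene, so the annotated transcript and not the nearest start was used to name hosts.

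Abca13, which encodes a very large ABC-family transporter, hosted the widest domain. It spanned 324412 bp on chromosome 11 (9264022 to 9588433, centred in intron 44 of 61) with 19951 normalized reads in KO and 19808 in WT. A second Abca13 domain of 166521 bp (9092343 to 9258863) held 11203 reads in KO and 10979 in WT, starting 0.398 kb after the gene's first annotated start. Together they covered 490933 bp, more than the domains of any other host, with a summed density of 63.1 per kb. The other widest domains belonged to Wdfy4, needed by mouse dendritic cells for cross-presentation (226043 bp), Eif4g3, a translation initiation scaffold (214818 bp), Syne2, which links nucleus and cytoskeleton (208135 bp), Ipcef1 (180582 bp), Usp34, a deubiquitinase (176646 bp), Ralgapa1, a subunit of a Ral GTPase activator (165701 bp), Ap3b1, a subunit of the AP-3 adaptor that sorts cargo to lysosome-related organelles (162177 bp), and Ttc7b (160758 bp). The centred log2(KO/WT), defined below, lay between -0.14 in Ttc7b and 0.02 in the second Abca13 domain for these 10 widest domains.

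The densest domain was that of Chil3, which encodes the chitinase-like protein Ym1. Its 26973 bp on chromosome 3 (105942277 to 105969249) held 136 reads per kb in KO and 129 in WT. Plec, the gene of the cytoskeletal linker plectin, had 116 in KO and 111 in WT, and Ltf, which encodes the granule protein lactoferrin, had 104 in KO and 91.6 in WT. Mxd1, a transcriptional repressor of the Myc network, had 85.3 in KO and 86.9 in WT, and a Lyst domain, over a gene that controls lysosome-related granule size, had 86.2 in KO and 83.5 in WT. Both libraries therefore gave these domains densities well above the median of all long domains.

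At the other end, 12 domains had under 20 reads per kb and 6 under 10. A Srp54a domain (signal recognition particle subunit; 36073 bp) and the adjoining Fam177a domain (25368 bp) on chromosome 12 stood at 1 read in both libraries. A second Srp54a domain had 3.74 per kb in KO and 3.25 in WT, Gm13139 4.85 in KO and 4.79 in WT, and Rsph3b 7.14 in KO and 7.92 in WT. Srp54a has near-identical copies in the mouse among which reads can be split, so the Srp54a values are uncertain, and a domain at 1 read carries no ratio. The cause of the low densities was not tested. Without the 6 domains under 10 per kb, an alternative added after seeing the data, 3812 domains remained and the median density, taken over the mean of both libraries, was 48.9, as with them.

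A host could carry several domains. There were 2836 hosts with 1 domain and 422 with at least 2, which together held 982 domains. Vps13b, a very large protein of membrane traffic, had 11, Arhgap15, a Rac GTPase-activating protein, had 8, and Mctp1 had 7. Elmo1, part of the Rac activator with DOCK proteins, had 5, as did Cep128, Cers6, Asap1, Dach1 and Uvrag. Neighbouring domains of a host lay a median of 4638 bp apart (interquartile range 1289 to 19076 bp), so several domains of a gene can be parts of a single stretch that the peak caller split. Their log2(KO/WT) differed by a median of 0.060, against 0.069 between neighbouring domains of different hosts.

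Most first domains, the 5'-most long domain of each host, began within 10 kb after a gene start. For 3196 hosts starts and strand could be solved in mm9 from the deposited distances. The offset was taken to the solved start nearest the edge, so for a gene with several starts it is the smallest offset. The 5' edge of the first domain lay a median of 2677 bp after that start (interquartile range 1587 to 14669 bp). It lay within 5 kb downstream for 1774 hosts (55.5%), within 10 kb for 2072 (64.8%) and upstream of that start for 110 (3.44%). The first domain held a solved start of its host in 146 cases (4.57%). Another H3K36me3 peak, of the same or another gene, was often present upstream of the edge. This was so in 31.9% of hosts in the 1 kb bin centred 2.5 kb upstream, and in 41.8% at 8.5 kb. The edge need not be where H3K36me3 begins along the gene, as the narrower Bcl2l11 peak described below shows. Of all domains, 89.5% held no gene start, 366 held 1 and 36 held 2 or more.

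H3K4me3 and H3K27ac peaks lay mostly just before the domains. In the 1 kb bin centred 1.5 kb upstream of the 5' edge, 60.9% of the 3196 hosts had an H3K4me3 peak and 72.3% an H3K27ac peak. In the bin centred 0.5 kb inside the domain the shares were 27.4% for H3K4me3 and 43.9% for H3K27ac, and 14.5 kb inside they were 6.41% and 12.7%. H3K4me1 was highest at the edge, with 69.1% in the bin 0.5 kb upstream and 64.1% in the bin 0.5 kb inside. Beyond the 3' edge of the last domain the shares were higher than inside it, with 21.2% for H3K4me3, 28.4% for H3K27ac and 32.0% for H3K4me1 at 1.5 kb.

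**Figure D2:**
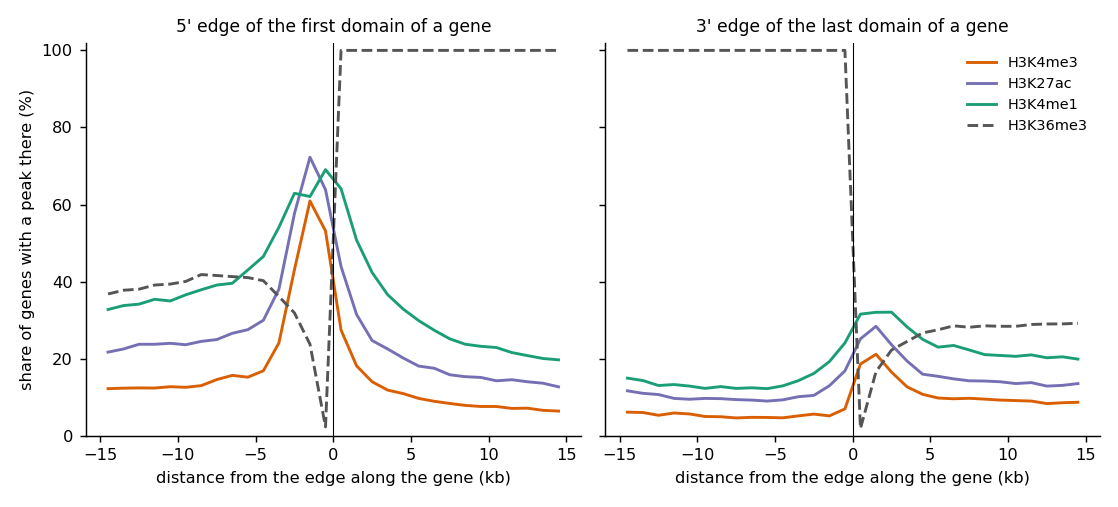
Share of 3196 host genes with a peak (y axis, %) by distance from the 5' edge of the first domain (left) and from the 3' edge of the last domain (right) in kb along the gene, for 3 other marks (solid) and H3K36me3 (dashed, 100% inside by construction). H3K4me3 reaches 60.9% at 1.5 kb upstream of the 5' edge and 6.41% at 14.5 kb inside.

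In 2063 hosts an H3K4me3 peak covered the start nearest the domain's edge, with the domain beginning 2 kb before to 10 kb after it. That peak ended a median of 1811 bp after the start and the domain began a median of 136 bp beyond its end. Peak and domain overlapped in 46.2% of these hosts. The start of the domain varied little with the width of the H3K4me3 peak. With the hosts divided into 3 classes of similar number by H3K4me3 peak width (medians 1940, 2980 and 6408 bp), the domain began 1862, 1954 and 1757 bp after the start, and the Spearman correlation of H3K4me3 reach and domain offset was -0.06. For H3K27ac peaks (2070 hosts) it was 0.03.

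Hosts of long domains had more signal of promoter marks at their starts than genes with narrower H3K36me3 peaks only. The signal was summed over all peaks within 1 kb of any solved start of a gene. Genes with more starts or wider peaks can therefore have more, and this was not tested. An H3K4me3 peak lay within 1 kb of a start in 98.0% of 3196 hosts, with a median signal of 532 normalized reads in KO and 539 in WT. Of 7044 genes with narrower genic peaks only, 90.7% had such a peak, with medians of 346 in KO and 329 in WT. H3K27ac was found at the start of 97.9% of hosts, with medians of 338 in KO and 330 in WT, and of 82.4% of the other genes, with medians of 166 in KO and 157 in WT. Over hosts with at least 50 WT reads at the start, the Pearson correlation of log2 domain density with log2 start signal was 0.36 for H3K4me3 (n = 3082) and 0.34 for H3K27ac (n = 2697), which are descriptions over genes of the same samples.

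Most domains also held peaks of other marks. A peak of H3K4me3 overlapped 60.3% of domains, of H3K27ac 84.3% and of H3K4me1 91.9%, all 3 marks overlapped 2214 domains (58.0%) and none overlapped 247 (6.47%). Counted per 100 kb of H3K36me3, domains held 3.53 H3K4me3, 6.68 H3K27ac and 7.14 H3K4me1 peaks, against 7.27, 13.9 and 17.7 in narrower genic peaks. That gap depended on what counts as an overlap. When a peak had to lie with at least 50% of its length inside, domains held 2.64, 5.26 and 5.59 per 100 kb and narrower genic peaks 2.48, 5.06 and 5.71. The shares of domains were then 47.2% for H3K4me3, 76.0% for H3K27ac and 82.9% for H3K4me1.

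Promoters of host genes were rich in CG dinucleotides. Of 2653 hosts matched in the promoter table, 66.3% had 20 or more CG in the 300-base window and 6.56% had 5 or fewer, with a median of 24. Genes with narrower genic peaks only had a median of 19 (5774 genes, 49.9% with 20 or more), and all 27025 genes of the table a median of 7 (26.8% with 20 or more). TATAAA was found in 5.50% of host promoters, 7.59% of those with narrower peaks only and 14.2% of all genes. Usp34, printed above, is of the CG-rich kind, Chil3 is among those with 5 or fewer, and Abca13, with 6, lies just above that limit.

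Relative to all H3K36me3 peaks, KO and WT neutrophils had nearly the same H3K36me3 over the long domains. The difference of a domain is given as log2 of (KO + 1) over (WT + 1) in normalized reads. The median over the 43255 H3K36me3 peaks was subtracted from it. Because signals are scaled per library and the ratio is centred, a change of H3K36me3 shared by all peaks would not be seen. Each carries an exact 95% interval (Clopper-Pearson) from the KO and WT reads of the domain. This interval covers counting error only, because with 1 library per genotype it cannot include variation between animals. Whether PCR copies were removed is unknown, and copies counted as separate reads would make the interval too narrow. A lower value from fewer cells that carry the mark and from less of the mark per cell cannot be told apart in such bulk samples. The median over domains was -0.03, with a standard deviation of 0.089 and the middle 90% between -0.18 and 0.08. The median domain had 1753 reads in KO and 1558 in WT, which gave an interval of 0.099 to either side. As a standard error this is 0.051, smaller than the standard deviation over domains, and 88.3% of domains lay within 1.1-fold.

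Few domains passed a 1.5-fold difference. Of all H3K36me3 peaks, 12.5% were at least 1.5-fold higher and 9.86% at least 1.5-fold lower in KO, and among the 3818 domains 3 were higher (Bcl2l11, Lipg and Cmah) and 2 lower (Trpm2 and Fmnl2). At 2-fold, 1 domain was higher (Bcl2l11), against 4.37% of all peaks, and 0 were lower, against 4.33%. Most peaks hold far fewer reads than a domain, with a median signal of 42.1 normalized reads in KO and 41.9 in WT over all peaks and 1639 in KO and 1672 in WT over domains. The 63 narrower genic peaks with a signal in the middle of the domains' range had 0 past 1.5-fold.

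**Figure D3:**
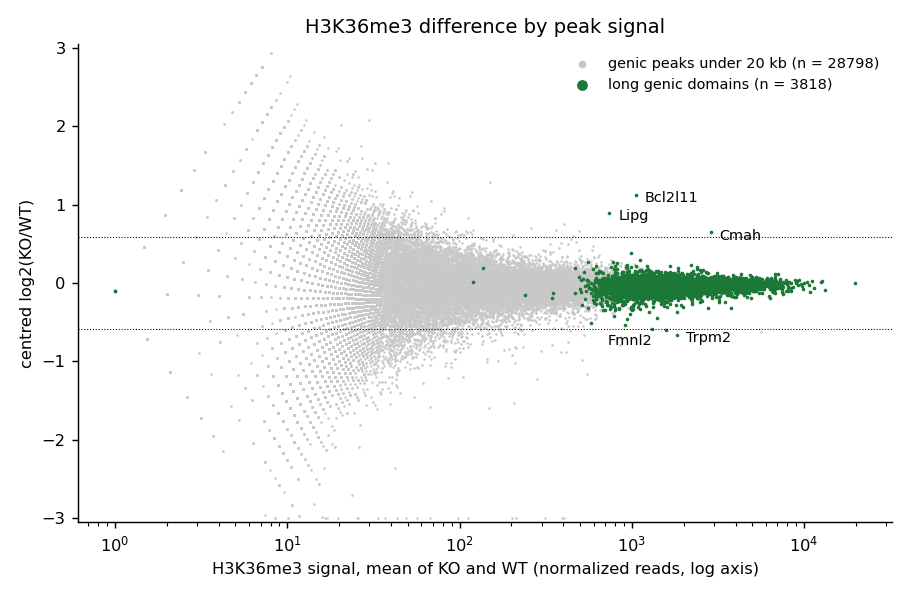
Centred log2(KO/WT) of H3K36me3 (y axis) against the mean signal of KO and WT in normalized reads (log x axis) for 28798 narrower genic peaks (grey, values beyond 3 drawn at 3) and 3818 long domains (green). Dotted lines mark 1.5-fold, and the 5 labelled domains lie beyond them.

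The sign of the overall shift depended on the centring. Below 0 lay 2563 domains (67.1%) with the median of all peaks as 0, and 1803 (47.2%) with the median of peaks at or above the median signal as 0, where the domains' median was 0.005. Less dense domains had lower ratios under either centring. The 955 least dense domains had a median of -0.07 and the 955 densest -0.002, or -0.04 and 0.04 with the other centring. Density and ratio come from the same values, so this is a description.

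Bcl2l11, the gene of Bim, had the highest KO over WT ratio of all domains. Its domain of 26321 bp on chromosome 2 (127963137 to 127989457, intron 3 of 3) held 1448 normalized reads in KO and 660 in WT, or 55.0 per kb in KO and 25.1 in WT, a centred log2 of 1.13 (0.99 to 1.26). A narrower peak closer to the start, from 2.11 to 9.68 kb after it, had 505 reads in KO and 298 in WT (0.75, 0.54 to 0.97). The whole body peak set was thus higher in KO, with the larger ratio in the distal part. At the start, H3K4me3 was 1579 in KO and 1358 in WT (0.06, -0.07 to 0.19) and H3K27ac 499 in KO and 275 in WT (0.79, 0.49 to 1.11), each centred on the stronger peaks of its mark. For H3K4me3 that median was 0.16, against 0.02 over all H3K4me3 peaks. Centred on all peaks, as H3K36me3 was, the H3K4me3 value would be higher and its interval would lie above 0. The nearest long domains on either side stayed near 0, with 1909 reads in KO and 1825 in WT for Bub1 (0.06), 307 kb before, and 4614 in KO and 4758 in WT for Anapc1 (-0.05), 445 kb after.

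Lipg, the gene of endothelial lipase, followed with 965 reads in KO and 517 in WT over 20623 bp on chromosome 18 (75097588 to 75118210), a log2 of 0.89 (0.74 to 1.05). Its start had 828 normalized H3K4me3 reads in KO and 475 in WT (0.64). H3K27ac there was 82.5 normalized reads in KO and 33.04 in WT (1.23, 0.40 to 2.24). A sequenced WT read counts as 2.35 normalized reads for H3K4me3 and 2.75 for H3K27ac, so WT start values rest on fewer reads than printed. All these marks stood higher in the KO libraries at Lipg.

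Cmah encodes the hydroxylase that makes the sialic acid Neu5Gc. Its domain of 64906 bp on chromosome 13 (24505332 to 24570237) held 3510 reads in KO and 2231 in WT, a log2 of 0.65 (0.57 to 0.73). All 10 peaks of the gene body had more signal in KO. The first, 9.35 kb after the first annotated start, was weak, with 19.6 reads in KO and 8.58 in WT, and an interval of -0.05 to 2.57. The other narrower peaks lay between 0.11 and 0.49, in no steady order along the gene, with 0.38 (0.04 to 0.72) in the peak just before the domain, which ran from 86.1 to 151 kb. The 5' edge of the domain lay at -1659 bp from a further annotated Cmah start, so that start was inside the domain. H3K4me3, summed over peaks within 1 kb of any annotated start of the gene, was low, at 95.4 in KO and 40.0 in WT (1.08, 0.37 to 1.92). H3K27ac, summed likewise, was 118 in KO and 135 in WT (-0.26, -0.72 to 0.22).

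The other 7 of the 10 highest ratios were below 1.5-fold. Csf2rb2, the mouse interleukin-3 receptor beta chain, had 1127 normalized reads in KO and 862 in WT (0.38, 0.25 to 0.51). Its start had 343 normalized H3K4me3 reads in KO and 165 in WT (0.90). The neighbouring Csf2rb is a near-identical copy, so the Csf2rb2 value is uncertain, and the Csf2rb domain had 1602 reads in KO and 1571 in WT (0.02). Tanc1, a scaffold protein gene, had 1224 in KO and 995 in WT (0.29). Vwa5a had 608 in KO and 503 in WT (0.27), and a domain of Ptprc, the gene of the leukocyte phosphatase CD45, had 857 in KO and 709 in WT (0.27). The other Ptprc domain had 5275 in KO and 5095 in WT (0.04), so the gene as a whole did not share the larger ratio. Eef2k, the kinase of elongation factor 2, stood at 0.26, Ptgr1, an enzyme that inactivates leukotriene B4, at 0.23, and Gca, the gene of the calcium-binding protein grancalcin, at 0.23. Ptgr1 and Gca also had more H3K4me3 at the start in KO (0.51 and 0.49). At the start of Tanc1 it was 577 in KO and 546 in WT (-0.08, -0.29 to 0.14), and at that of Eef2k 707 in KO and 682 in WT (-0.11, -0.29 to 0.09). Both signals were slightly higher in KO, the minus signs come from the centring on stronger peaks, and both intervals include 0.

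Trpm2, a calcium-permeable channel opened by ADP-ribose and oxidative stress, had the lowest ratio. Its domain of 37703 bp on chromosome 10 (77375765 to 77413467) held 1416 reads in KO and 2227 in WT, or 37.6 per kb in KO and 59.1 in WT, a log2 of -0.66 (-0.76 to -0.56). The peak behind its start, from 0.667 to 12.2 kb, had 484 in KO and 660 in WT (-0.45, -0.62 to -0.28). H3K4me3 at the start was 841 in KO and 868 in WT (-0.20, -0.37 to -0.03), a smaller difference than in the body, and H3K27ac 395 in KO and 427 in WT (-0.18, -0.43 to 0.08). Most of the H3K4me3 value came from its centring on stronger peaks, whose median was 0.16, against 0.02 over all H3K4me3 peaks. The body value was centred on all peaks.

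Fmnl2, a formin that elongates actin filaments, had 1253 reads in KO and 1898 in WT over 41376 bp (chromosome 2, 52892705 to 52934080), a log2 of -0.61 (-0.71 to -0.50). Its 33 narrower body peaks summed to 3165 in KO and 4079 in WT (-0.37). Adam19, a membrane metalloprotease, lay at the 1.5-fold limit with 1050 in KO and 1564 in WT (-0.58, -0.70 to -0.47). Cd101, an immunoglobulin-family membrane protein of myeloid cells, had 744 in KO and 1074 in WT (-0.54, -0.67 to -0.40). At the starts, H3K4me3 of Fmnl2 was -0.35, of Adam19 -0.48 and of Cd101 -0.83 (-1.09 to -0.56), so H3K4me3 and body H3K36me3 were lower in KO at all 3. H3K27ac was -0.47 (-0.86 to -0.08) at Fmnl2 and -0.60 (-1.06 to -0.13) at Adam19, while at Cd101 it was 438 in KO and 449 in WT (-0.10, -0.35 to 0.15), an interval that includes 0.

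Further low ratios were -0.51 in Ide (insulin-degrading enzyme), -0.46 in Cpa6 (a carboxypeptidase), -0.44 in Gsap, -0.42 in Oxct1 (an enzyme of ketone body use) and -0.40 in Fas (a death receptor). Fas had 849 reads in KO and 1115 in WT over 30050 bp. In Cpa6 and Gsap a further domain of the same host lay near 0, at -0.05 and -0.07. In 13 of the 14 high or low domains whose hosts had narrower body peaks, those peaks lay on the same side of 0, with Ptprc (-0.05) as the exception. The domains were picked as extremes, and the same share over all hosts is not given here. Some of the sums were small, as in Fas with 81.4 normalized reads in KO and 94.4 in WT.

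**Figure D4:**
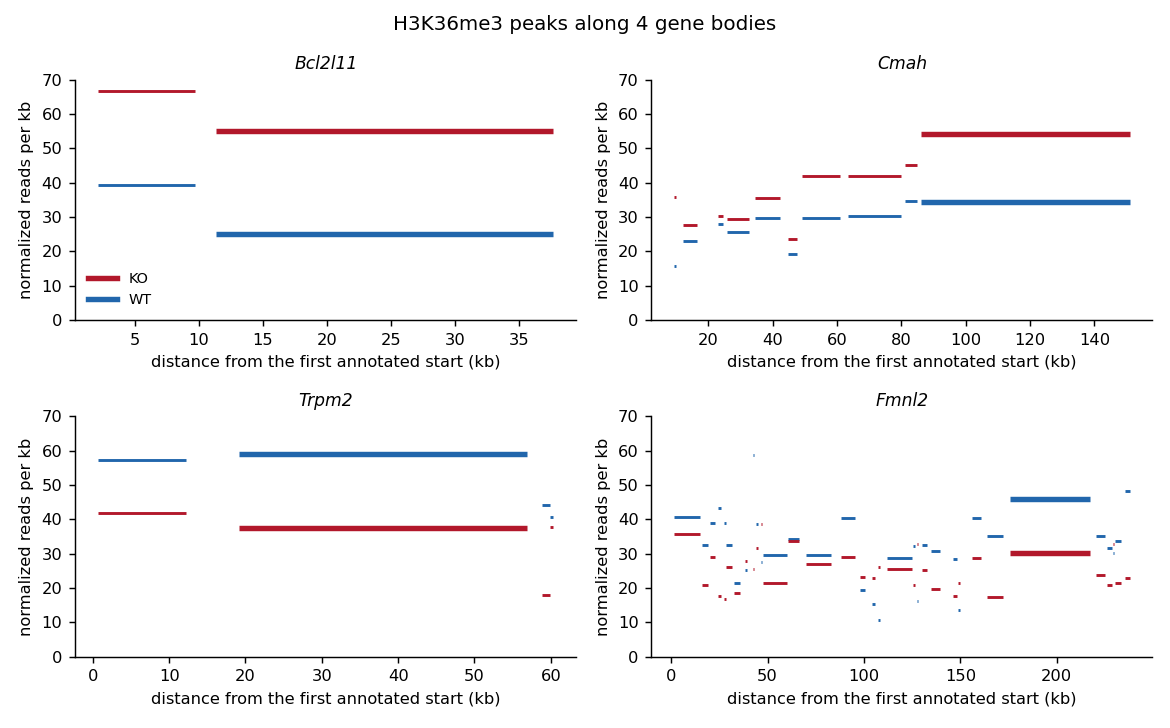
Normalized H3K36me3 reads per kb (y axis) of each peak along 4 gene bodies, by distance from the first annotated start in kb (x axis), with KO in red and WT in blue and long domains as thick bars. The domain has 55.0 per kb in KO and 25.1 in WT at Bcl2l11, and 37.6 in KO and 59.1 in WT at Trpm2.

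The long domains next to these 20 differed little. They numbered 39, had a median absolute log2 of 0.059 and 0 past 1.5-fold, and the one farthest from 0 was Btaf1 before Ide at -0.31. Among all 3818 domains only 5 passed 1.5-fold, so the 0 does not set these 39 apart from other domains. Some lay far off, up to 3388 kb for Aoah before Cmah. Over 1158 hosts whose narrower body peaks summed to at least 200 normalized reads, the log2 of the domains and of those peaks had a Pearson correlation of 0.53. Between domains and the host's start it was 0.27 for H3K4me3 (n = 3082) and 0.11 for H3K27ac (n = 2697). The Spearman values were 0.25 for H3K4me3 and 0.06 for H3K27ac. Only starts with at least 50 WT reads entered, a limit set on the WT library alone. These correlations are over genes of the same libraries and are descriptions.

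Domains of genes with CG-poor promoters varied more between KO and WT. The standard deviation of log2 was 0.125 in 223 domains whose host had 5 or fewer CG, 0.091 in 847 with 6 to 19 and 0.082 in 2047 with 20 or more. The middle 90% of domains ran from -0.20 to 0.13 in the first class, from -0.18 to 0.09 in the second and from -0.17 to 0.08 in the third. The interval from counting error was similar in the 3 classes, with a median of 0.100, 0.102 and 0.097 to either side. Of the 20 highest and lowest domains, 16 had a promoter entry, 7 of them with 5 or fewer CG and 3 with 20 or more, among them Bcl2l11 with 27 and Fmnl2 with 49.

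Gene lists of known function were read for how many of their genes hosted a domain and how far their domains differed. Because the centring moves all domains together, members are counted against the median of all domains, -0.03. Of all 10625 genes with a genic H3K36me3 peak, 30.7% hosted a domain. The lists were chosen with earlier results of these data known, so their higher shares of hosts are given as counts only. Of 24 genes that write, read or erase H3K36 methylation, 18 hosted 21 domains with a median log2 of -0.02, 8 of them below that median. Setd2, the enzyme that adds the third methyl group, had 7354 reads in KO and 7235 in WT over its domain (0.02), and Nsd1, a dimethyltransferase, had 6939 in KO and 6809 in WT (0.02). The lowest was the demethylase gene Kdm4b with 652 in KO and 789 in WT (-0.28, -0.43 to -0.13). Of 32 other chromatin regulators, 30 hosted 42 domains with a median of -0.03 and the lowest at -0.14 (Hdac4). The co-repressor Ncor1 had 10049 in KO and 10026 in WT over 150017 bp.

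Regulators of the cytoskeleton, which drive neutrophil crawling and uptake, had the lowest median of the long lists at -0.07. Of 30 genes 27 hosted 50 domains, of which 34 lay below the median of all domains. Several of these came from the same gene, such as Arhgap15, and with the domains of each gene summed, 15 of the 27 genes lay below the median of all hosts. After Fmnl2 the lowest was Prex1, a Rac activator of neutrophils, with 3176 reads in KO and 3749 in WT (-0.25). The 3 domains of Fyb, an adaptor of integrin signalling, had -0.23, -0.21 and -0.20, and the 8 of Arhgap15 ranged from -0.23 to -0.02. Dock8 and Tln1 went the other way by small amounts, with 3697 in KO and 3493 in WT (0.08) for a Dock8 domain and 2869 in KO and 2732 in WT (0.06) for Tln1, the gene of talin. The only domain of this list past 1.5-fold was that of Fmnl2, which fell short of it with the centring on stronger peaks (-0.57).

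Other lists stayed close to the median of all domains. Ubiquitin ligases and deubiquitinases (22 of 24 genes, 31 domains) had a median of -0.04, with Usp32 lowest at -0.19. Lipid and PI3K-like kinases and phosphatases (16 of 20, 22 domains) had -0.04, with Pi4ka lowest at -0.22 and -0.21. Immune signalling proteins and transcription factors (26 of 28, 44 domains) had -0.01, from a Foxp1 domain with 499 reads in KO and 619 in WT (-0.32) to the Ptprc domain above. RNA processing and nuclear transport genes (21 of 22, 23 domains) had -0.001, with an Mbnl1 domain highest at 0.19. Membrane traffic and autophagy genes (17 of 18, 41 domains) had -0.05, with Vps13b from -0.27 to 0.11. None of these domains reached 1.5-fold.

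**Figure D5:**
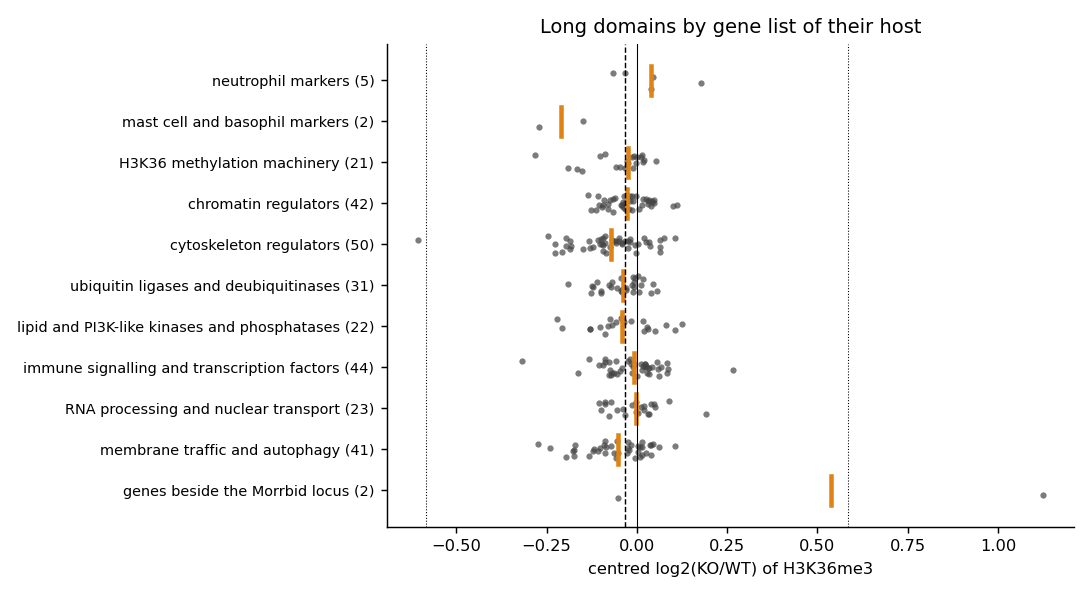
Centred log2(KO/WT) of H3K36me3 (x axis) of each long domain (points), by the gene list of its host (rows, number of domains in brackets), with the list median as an orange bar. The dashed line is the median of all domains (-0.03) and dotted lines mark 1.5-fold, which Bcl2l11 (1.13) and Fmnl2 (-0.61) pass.

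Among cell type markers, 5 of the 20 of neutrophils hosted a domain. Padi4, which citrullinates histones in neutrophil extracellular trap formation, had 2022 reads in KO and 2106 in WT, and Itgam, the integrin CD11b, 4560 in KO and 4413 in WT. Il1r2, the decoy interleukin-1 receptor, had 2449 in KO and 2363 in WT. With Mxd1 and Ltf these 5 domains had a median of 74.3 reads per kb. Csf3r, the receptor of G-CSF, had a widest peak just under the limit, with 1582 normalized reads in KO and 1594 in WT over its body. No T cell, B cell, NK cell, monocyte, eosinophil, erythroid or dendritic cell marker hosted a domain. Their largest body sums were those of Vcam1 (526 in KO, 543 in WT) and Bank1 (339.5 in KO, 389.5 in WT). Kit, a receptor of mast cells and of blood progenitors, hosted 2 domains with 825 reads in KO and 990 in WT (-0.27) and 779 in KO and 861 in WT (-0.15). The other mast cell and basophil markers had body sums of 91.7 in KO and 59.0 in WT for Mcpt8 and 128 in KO and 120 in WT for Ms4a2, and Cpa3 and Fcer1a had no H3K36me3 peak in their bodies. The same held for 3 of the 20 neutrophil markers, S100a8, Ly6g and Camp. None of 20 long genes of nervous system and muscle hosted a domain, and the highest body sum among them was 141 in KO and 151 in WT.

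For 17 domains the transcript annotated at the centre was that of a long non-coding gene. That gene need not be the one the domain covers, and overlap with protein-coding genes was not tested. These domains included Dleu2 with 2126 reads in KO and 2132 in WT in its wider domain and Lincpint with 1323 in KO and 1134 in WT. Ftx, a gene of the X inactivation centre, had 611 in KO and 648 in WT. Domains on chromosome X were less dense. The 67 X domains had medians of 32.5 per kb in KO and 32.6 in WT, and the 3751 autosomal domains 48.7 in KO and 49.6 in WT. Narrower genic peaks differed less, with 26.2 in KO and 25.5 in WT on X and 27.5 in KO and 27.7 in WT on autosomes. The sex of the mice is not given, so X copy number was not tested. Autosomes had median densities, over the mean of KO and WT, of 47.2 (chromosome 14) to 52.0 (chromosome 11).

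The width limit cut a continuous range. Just inside it lay Cpsf3l (20002 bp, 49.4 per kb in KO and 47.6 in WT) and Rnf6 (20023 bp, 59.6 in KO and 57.0 in WT). Just outside lay Seh1l (19994 bp, 46.9 in KO and 48.1 in WT), Irf2 (19992 bp, 34.95 in KO and 36.7 in WT) and Alpk1 (19985 bp, 30.8 in KO and 26.4 in WT).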

How the data were processed

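H3K4me1, H3K4me3, H3K27ac and H3K36me3 were measured by ChIP-seq in sorted neutrophils, with 1 KO and 1 WT library per mark. The submitters' processing notes name MACS2 2.1.0, DiffBind, HOMER, Bowtie2 2.2.3, build mm9, R 3.1.1, bcl2fastq 2.16.0 and Trimmomatic 0.32; on settings and any use of input, nothing is given in the sources used here. The authors deposited, for each mark, the normalized read signal of consensus peaks in both libraries, and a log2 column, which matched log2(KO/WT) to within 4.84e-08. Dividing each deposited signal by the lowest of its column gave whole reads (100% within 0.01 read); a peak at 0 and at 1 read cannot be told apart. A count model could not be fitted to 1 library per group, so no p-value is given.

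Differences used a pseudocount of 1, which damps the differences of weak peaks, and were centred on the median of all peaks; start signals of other marks (peaks within 1000 bp) were centred on peaks at or above the mark's median signal. Hosts came from the annotated transcript, paired with symbols in the files (3466 domains), through RefSeq of GRCm38.p6 (348) or the nearest gene (4). Gene starts and strand in mm9 were solved from deposited distances for 21286 of 24606 promoter IDs, within 5 bp. Promoter sequences are RefSeq's for GRCm38.p6. Named domains were the 10 widest, the 10 highest and 10 lowest ratios, the 5 densest and least dense, 3 on each side of the width limit, the 5 hosts with most domains, the 2 highest and 2 lowest of each list, and those beside Morrbid, although some are not reported here; other list members and hosts named were chosen after their values were seen. The members and lists were chosen with earlier results of these data known. The ratio and its interval were tested on simulated reads with counting error only, and the overlap count on a small made-up example. The naming of hosts, the solving of gene starts and the start signals were not tested in this way. Software was scipy 1.17.1, pandas 2.3.3, numpy 2.4.6 and matplotlib 3.10.9 under Python 3.11.15.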

Additional observations from a re-analysis of the deposited data

How the results depend on the processing

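No paired analysis was possible because each mark had 1 library per genotype, and none could be left out. The number of domains, 3818, was 2285 with a limit of 30000 bp. The median density, 48.9 normalized reads per kb over the mean of both libraries, was 47.2 with a limit of 15000 bp, 50.7 with 30000 bp and 3.96 in another unit, reads per kb scaled to the depth in peaks. The 5 domains past 1.5-fold (3 higher, 2 lower) became 11 (7 lower) with a limit of 15000 bp and 0 (0 higher, 0 lower) among domains at or above the median density, since all 5 lie below it. With a running median over peaks of similar signal, and with the centring on stronger peaks (this count added after seeing the data), 1 domain was lower, because Fmnl2 then had -0.57, just short of 1.5-fold. With at least 50% of the other mark's peak inside, the shares of domains overlapped were 47.2% (H3K4me3), 76.0% (H3K27ac) and 82.9% (H3K4me1), and with the stronger peaks of each mark 50.5%, 74.3% and 85.5%. The median log2(KO/WT), -0.03, ranged from -0.03 to 0.005 over its alternatives, all within the counting error of 1 domain, and its sign depends on the centring. The 20 highest and lowest domains kept their side of 0 with a pseudocount of 10 and with the running median. For all of these the cause was not tested. Reads limit a typical domain to differences of about 0.099 on the log2 scale, and no value here measures variation between animals.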
